A study of Mus musculus with 26 samples.

Results

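Group 2 innate lymphoid cells (ILC2s) of the lungs of CC030/GeniUnc mice were compared between day 6 and day 2 of culture with vehicle, with both days from the same mouse. CC030 belongs to the Collaborative Cross, a panel of inbred lines that mix the genomes of several founder strains. The comparison uses 10 of the 26 libraries of the series, 5 vehicle libraries at day 2 and 5 at day 6, chosen by their labels alone and paired by mouse. The mice were wild type and, by the study's general methods, female and 8 to 16 weeks of age, and lung cells were sorted as lineage-negative cells with CD90, CD127 and ST2, a gate whose lineage stain held CD3, CD4 and FcεR1 among others. Cells of each mouse were cultured apart, and all wells received IL-33, TSLP and human IL-2, with DMSO as the vehicle. The other 16 libraries are the same 5 mice with 10 µM AR420626, an agonist of FFAR3, at both days (10 libraries) and uncultured ILC2s of 3 C57BL/6J and 3 CC030 mice, which serve here as references. A library from before culture is not analysed here for these 5 mice, so the comparison is between early and late culture and not between resting and activated cells.

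ILC2s are tissue lymphocytes without an antigen receptor that answer the epithelial alarmins IL-33 and TSLP with type 2 cytokines. IL-33 signals through ST2 and the shared chain IL-1RAcP (gene Il1rap) to MyD88 and NF-κB. TSLP and IL-2 signal through receptor chains of the cytokine receptor family to JAK and STAT proteins, and SOCS1 feeds back on that pathway. Lymphocytes that leave rest for growth in culture are known to raise ribosome production, mitochondrial respiration and DNA replication.

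Gene symbols could be read on chromosome 16 and on the mitochondrial genome but not elsewhere. CC030 reads had been aligned to an mm9 pseudogenome and moved to mm10, so the levels under each symbol were compared with those of uncultured C57BL/6J ILC2s, whose reads were aligned to mm10. Across the protein-coding genes of a chromosome, which are not independent replicates, Spearman's rho between the levels per exonic kb at day 6 and in C57BL/6J was 0.783 on chromosome 16 (664 genes) and 0.951 on the mitochondrial genome (13 genes). On the other chromosomes it lay between 0.056 and 0.319. At day 2 it was 0.617 on chromosome 16, and for uncultured CC030 ILC2s 0.234. These values are of mean levels over the libraries of a group, and the single day 2 libraries differed widely, as given below. Within chromosome 16 the rho at day 6 was 0.841 for the 631 genes that start before 94 Mb and -0.028 for the 33 genes from 94 Mb on. Of the 1000 protein-coding genes highest in C57BL/6J ILC2s, the 20 on chromosome 16 all reached a mean of 10 CPM (the count of a gene scaled to a common total, 1e6 counts in genes) at day 6, whereas 205 of 973 on the other nuclear chromosomes did (21.1%). At day 2 all 20 and 583 of the 973 did (59.9%).

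**Figure D1:**
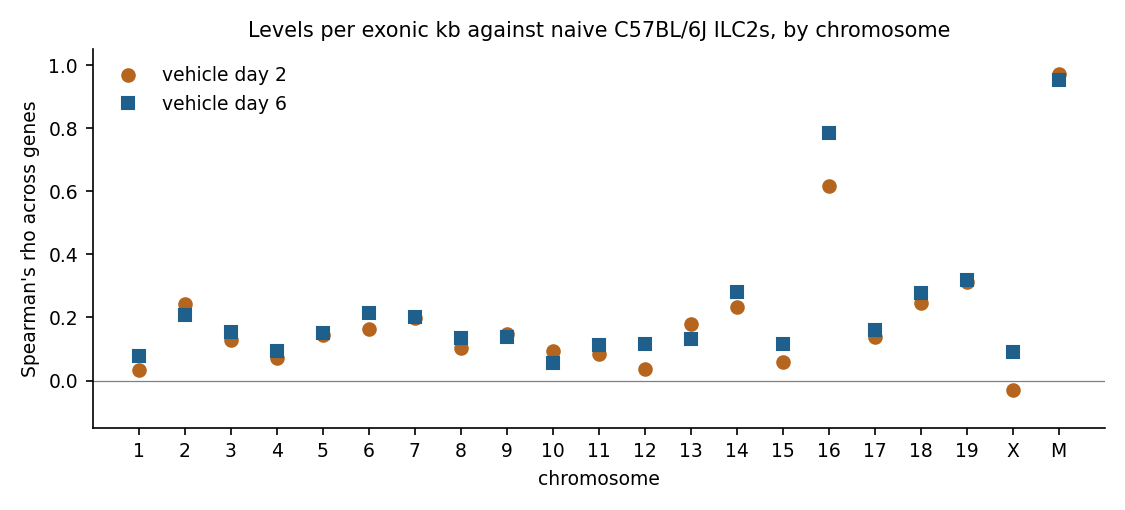
Spearman's rho across protein-coding genes between vehicle libraries and uncultured C57BL/6J ILC2s, by chromosome, for the mean level per exonic kb at day 2 (circles) and day 6 (squares). Chromosomes 16 and M stand above all others, which stay at or under 0.319.

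The defining markers of ILC2s lie on other chromosomes, so the labelled cell type could not be checked by them. Gata3, the lineage factor of ILC2s, had a mean of 232 CPM in C57BL/6J ILC2s and 23.6 to 44.0 CPM at day 6. Id2 had a mean of 5200 CPM in C57BL/6J and at most 2.38 CPM at day 6, and Areg at most 0.585 CPM at day 6. Of the 10 ILC2 identity genes that passed the filter on low counts, 1 fell and 9 did not pass the test. The results below therefore name genes of chromosome 16 before 94 Mb and of the mitochondrial genome, and genes of the other chromosomes enter as counts only.

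The day 2 libraries differed among themselves far more than the day 6 libraries. Counts in genes numbered 1139210 to 5320028 at day 2 and 1143405 to 3420893 at day 6. Over the 259 genes of chromosome 16 before 94 Mb that were tested and reached 10 CPM in C57BL/6J ILC2s, called expressed genes below, the rho between libraries was 0.904 to 0.968 within day 6 and 0.367 to 0.807 within day 2. The mean rho of a day 2 library with the 5 day 6 libraries was 0.776 for mouse 1, 0.049 for mouse 2, 0.088 for mouse 3, 0.252 for mouse 4 and 0.567 for mouse 5. A count was present at 42723 to 44880 genes in the day 2 libraries of mice 1 to 4, at 32347 genes in that of mouse 5, and at 28113 to 33117 genes at day 6. Over all genes counted, levels followed exon length at a rho of 0.794 to 0.810 in the day 2 libraries of mice 1 to 4. It was 0.678 in that of mouse 5 and 0.610 to 0.691 at day 6. The part of these differences between libraries in the results below was not tested, and fewer cells and less RNA per cell cannot be told apart in bulk samples.

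Most of the genes of chromosome 16 that passed the test were higher at day 6. Of 579 genes tested, 218 rose, 12 fell and 349 did not pass (edgeR's quasi-likelihood test with mouse as a block, adjusted p under 0.05 over all 15819 genes tested). Over all genes tested, 13.6% rose and 3.73% fell. The median log2 fold change, day 6 over day 2, was 1.72 on chromosome 16 and -0.36 on chromosomes other than 16 and M. Among the 259 expressed genes, 162 rose and none fell by edgeR, with a median of 3.11, and among the 295 tested genes before 94 Mb that did not reach 10 CPM in C57BL/6J, 56 rose and 10 fell, with a median of -0.03. None of the 25 tested genes from 94 Mb on rose and 2 fell.

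With scaling over all genes, the rise was present in mice 1 to 4 and nearly absent in mouse 5. The median paired difference of log2(CPM + 1) over the 259 expressed genes was 2.93 in mouse 1, 3.35 in mouse 2, 3.25 in mouse 3, 4.91 in mouse 4 and 0.09 in mouse 5. In mouse 5, 136 of these genes were higher at day 6, against 253 to 255 in each of the others. All 5 day 6 libraries were above all 5 day 2 libraries for 103 of the 259 genes (39.8%), against 9.6% of all genes tested. They were above the day 2 libraries of mice 1 to 4 for 246 of the 259. That count leaves out the mouse in which the rise was nearly absent. Its share over all genes tested was not computed, so it cannot be read as particular to these genes. The number of calls rested on single mice. Without mouse 5, 355 of 630 genes of chromosome 16 rose and 35 fell, and 250 of the 259 expressed genes rose. Over all 18253 genes tested in that fit 3943 rose and 1433 fell, against 2152 and 590 of 15819 with all mice. Without mouse 1, 2, 3 or 4, 112, 99, 99 and 87 genes of chromosome 16 rose, and 69, 62, 53 and 46 of the expressed genes. Over all genes 1060 of 15552, 999 of 14149, 1026 of 14921 and 820 of 16124 rose in these fits. The number of calls thus changed over all genes and not on chromosome 16 alone. Without the mouse as a block 139 genes of chromosome 16 rose, 84 of them expressed genes, and 1416 of all 15819 genes. Without mice 2, 3 and 4, whose day 2 libraries followed day 6 least, the median of the expressed genes was 1.24. No gene of chromosome 16 passed edgeR's test there and 56 of 551 had an unadjusted p under 0.05, but a paired fit of 4 libraries has little power and the count of 0 says nothing of stability, and these libraries were chosen after their likeness to day 6 had been seen.

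**Figure D2:**
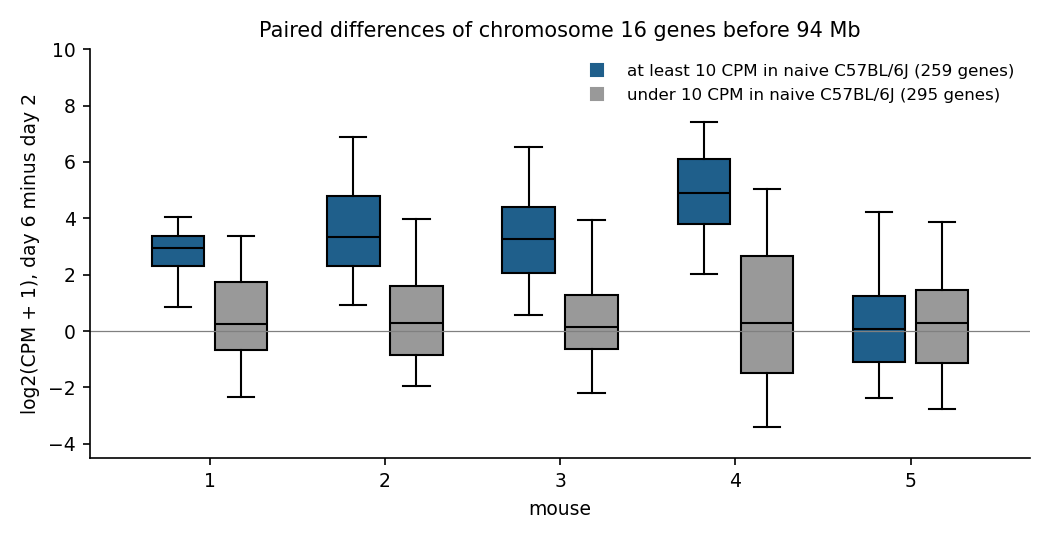
Paired difference of log2(CPM + 1), day 6 minus day 2, in each mouse over chromosome 16 genes before 94 Mb, split by whether the gene reached 10 CPM in uncultured C57BL/6J ILC2s. Boxes give quartiles and median, and whiskers run from the 5th to the 95th percentile of genes. The expressed genes sit above 0 in mice 1 to 4 and around 0.09 in mouse 5.

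The size and the direction of these changes depend on the scaling. The main values are scaled by TMM over all genes, of which most lie on chromosomes whose symbols could not be read. TMM factors of mice 1 to 5 were 2.624, 1.36, 2.91, 2.124 and 0.2545 at day 2. At day 6 they were 0.7042, 0.8998, 1.019, 0.3828 and 0.7201. Levels are divided by these factors, so the contrast of mouse 5 with the other mice also rests on them. The part of the factors in that contrast was not tested. As an alternative chosen after the data had been seen, libraries were scaled by 265 expressed genes of chromosome 16, which sets the typical change of these genes near 0 by construction. On that scale 49 genes of chromosome 16 rose and 235 fell, 2.63% and 71.5% being the shares over all genes, and the median of the expressed genes was 0.03. With counts, scaling and test confined to chromosome 16, 122 of 599 genes rose (20.4%) and 145 fell (24.2%). A log2 fold change below is from the scaling over all genes unless it is called relative, which means the scaling by expressed genes. A relative rise is a rise beyond that of the typical expressed gene of chromosome 16.

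Among protein-coding genes of chromosome 16 that averaged 50 counts or more and moved alike in all 5 mice, the 12 largest increases were led by Ranbp1, Ncbp2, Pigx, Atp5j and Trmt2a. Levels below are CPM of TMM-scaled library sizes, for mice 1 to 5 in order. Ranbp1, a co-factor of the Ran GTPase in nuclear transport, was at 144, 2.58, 8.42, 15 and 318 at day 2 and at 2677, 1802, 1550, 4520 and 1835 at day 6. Every day 6 library was above every day 2 library, and mice 1 and 5 were the highest at day 2. Its log2 fold change was 6.55 (SE 1.55, adjusted p = 0.00803 by edgeR), and its relative change 3.36 (SE 0.71, adjusted p = 0.00762). Ncbp2, the cap-binding subunit of the nuclear cap-binding complex, was at 86.3, 8.40, 7.65, 7.51 and 182 at day 2 and at 1993, 1226, 1411, 3093 and 1779 at day 6, again without overlap. The log2 fold change was 6.31 (SE 1.36, adjusted p = 0.0046 by edgeR), with a relative change of 3.30.

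Atp5j, a subunit of the mitochondrial ATP synthase, was at 318, 16.1, 12.2, 56.1 and 224 CPM at day 2 and at 2914 to 6957 CPM at day 6. Its log2 fold change was 6.06 and its relative change 3.10. Pigx, which takes part in adding the mannose of GPI anchors, had a log2 fold change of 6.17, with 1454 to 6475 CPM at day 6 and at most 214 CPM at day 2. Trmt2a, a tRNA methyltransferase, had one of 6.04, and its day 2 level was 1312 CPM in mouse 5 and 8.40 to 43.0 CPM in the other mice. The other genes of the 12 largest increases were 0610012G03Rik (5.91), Gm4737 (5.81), Cep19 (5.57), Cd200r1 (5.51), Gap43 (5.50), Fam162a (5.46) and 2010005H15Rik (5.35). All 12 rose in all 5 mice, as the rule for naming them asked, for which the exact sign-flip test of 5 pairs gives its smallest p, 0.063, and 11 of them also rose on the relative scale, the exception being 2010005H15Rik (relative change 2.54, adjusted p = 0.0713 by edgeR). Gm4737 and Gap43 had 0 CPM in C57BL/6J ILC2s, and 2010005H15Rik belongs to a cluster of near-identical stefin A genes, so its counts are uncertain.

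Several of these genes lie head to head with another gene that also rose. Ranbp1 (chromosome 16, 18239784 to 18248732, minus strand) and Trmt2a (18248679 to 18254772, plus strand) overlap at their starts. The same arrangement holds for Pigx and Cep19, whose starts are 60 bases apart, for 0610012G03Rik and Ncbp2, 19 bases apart, and for Atp5j and Gabpa, which overlap further at their annotated starts. Gabpa encodes the DNA-binding subunit of GABP, an ETS family factor known for nuclear genes of mitochondrial proteins. It was at 51.5, 10.7, 19.5, 13.7 and 76.1 CPM at day 2 and at 1019, 793, 783, 1535 and 1190 CPM at day 6, a log2 fold change of 5.31 (SE 1.08, adjusted p = 0.00314 by edgeR) and a relative change of 2.35. The counting is not stated to use strand, so reads in overlapping starts cannot be assigned to 1 gene of a pair. Among 30 pairs with both genes tested and starts at most 1000 bases apart or overlapping by at most 300 (which leaves out Atp5j and Gabpa), both genes rose in 13, 1 gene in 8 and neither in 9. Of the protein-coding genes in a pair 35 of 62 rose (56.5%), against 130 of 384 others (33.9%). Among expressed genes the shares were 72.1% of 43 and 56.1% of 189, and this view of pairs was chosen after the values had been seen.

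Promoters of 2 of these pairs are shown, that of Ranbp1 and Trmt2a because Ranbp1 had the largest increase and that of Atp5j and Gabpa because Gabpa encodes a factor whose motif was searched. They were read from RefSeq on GRCm38.p6 as 250 bases before to 50 bases after a gene's start. The Gabpa promoter, chr16:84834874-84835173 on the plus strand, also covers most of a RefSeq promoter of Atp5j on the other strand. Capitals mark the letters CCGGAAG, the core that GABPA and other ETS factors bind, read here on the minus strand. The Trmt2a promoter, chr16:18248633-18248932 on the plus strand, covers most of that of Ranbp1 and holds no match.
Gabpa: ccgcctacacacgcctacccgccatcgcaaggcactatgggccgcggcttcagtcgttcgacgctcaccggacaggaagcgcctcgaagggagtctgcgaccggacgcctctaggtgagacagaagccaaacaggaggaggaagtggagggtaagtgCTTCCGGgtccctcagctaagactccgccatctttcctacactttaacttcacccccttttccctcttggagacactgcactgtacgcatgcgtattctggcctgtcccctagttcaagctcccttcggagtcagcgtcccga
Trmt2a: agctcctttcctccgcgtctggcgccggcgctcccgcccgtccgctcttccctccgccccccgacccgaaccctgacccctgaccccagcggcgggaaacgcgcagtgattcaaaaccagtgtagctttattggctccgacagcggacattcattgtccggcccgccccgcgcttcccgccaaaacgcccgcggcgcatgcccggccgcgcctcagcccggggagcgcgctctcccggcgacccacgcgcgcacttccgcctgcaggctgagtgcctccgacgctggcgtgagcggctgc
CCGGAAG on either strand was present in 9.12% of 27025 promoters of all genes, in 38 of 151 promoters of chromosome 16 genes that rose (25.2%), in 37 of 245 of those that did not pass (15.1%) and in 19 of 54 of head-to-head pairs (35.2%). The motif was chosen after the values had been seen, and a match is a description of letters, not a bound site. TTCNNNGAA, the GAS element of STAT proteins, which reads the same on both strands, was present in 8.47% of all promoters, 6.62% of those that rose and 8.98% of those that did not pass. Promoters were found for 421 of the 579 tested gene symbols.

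Of all 554 tested genes of chromosome 16 before 94 Mb 39.4% rose, and of the expressed genes 62.5%. The counts of the gene groups below stand beside these shares and were not tested against them. Group counts that leave out a mouse stand beside those of the expressed genes and of all genes in the same fits, given above. Of the 24 chromosome 16 genes tested of RNA processing, translation and protein folding, 15 rose and none fell by edgeR, with a median log2 fold change of 3.94 and a relative median of 0.72. Hspa13, a chaperone of the HSP70 family in the endoplasmic reticulum, had 16.1 to 84.3 CPM at day 2 and 477 to 2170 CPM at day 6, a log2 fold change of 4.59. Sdf2l1, another endoplasmic reticulum protein, rose by 4.13 on the log2 scale and Rpl24, a protein of the large ribosomal subunit, by 4.74. Rpl24 has processed copies in the genome that can take its reads, and it was at 2.47 CPM in C57BL/6J ILC2s, so its level is uncertain. On the relative scale 7 of the 24 rose and 2 fell. Without mouse 5 all 24 rose on the main scale, and without any one of mice 1 to 4, 4 to 6 did.

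Nuclear genes of mitochondrial proteins rose together with it. Of 20 tested, 14 rose and none fell by edgeR, with a median of 3.58 and a relative median of 0.32, and 6 rose and none fell on the relative scale. The 14 became 20 without mouse 5 and 4 to 9 without any one of mice 1 to 4. Ndufb4, a subunit of respiratory complex I, was at 13.3, 3.88, 4.97, 7.95 and 18.1 CPM at day 2 and at 169, 247, 188, 299 and 355 CPM at day 6, with a log2 fold change of 4.87 (SE 0.84, adjusted p = 0.00105 by edgeR). Its groups did not overlap, and mouse 5 was higher at day 6 like the others. Pam16, part of the motor that imports proteins into mitochondria, rose by 3.14 on the log2 scale and Mrpl39, a protein of the mitochondrial ribosome, by 2.65. Their relative changes were 0.22 and -0.30, so the direction for Mrpl39 turns with the scaling. Pam16 overlaps Glis2 on the other strand, and counts in the overlap cannot be assigned to either.

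DNA replication, repair and division, a list that also holds Ranbp1, had 6 of 15 genes higher and none lower by edgeR, with a median of 2.53 that became -0.49 on the relative scale. Rfc4, a subunit of the clamp loader of DNA replication, was at 59.0, 3.55, 6.50, 10.6 and 538 CPM at day 2 and at 356 to 1431 CPM at day 6, so that mouse 5 alone was as high at day 2 as at day 6. Mis18a, which prepares centromeres, rose by 4.09 on the log2 scale and Rmi2, of the BLM complex that resolves crossed DNA strands, by 3.65. On the relative scale Ranbp1 alone of this group rose and 5 fell, and on the main scale all 15 rose without mouse 5 and 1 to 3 without any one of mice 1 to 4. Under metabolism and transport, 9 of 18 genes rose and none fell by edgeR (median 2.70, relative median -0.55), and 13 without mouse 5 but 3 or 4 without any one of mice 1 to 4. Hmox2, the constitutive heme oxygenase, rose by 5.09 on the log2 scale, Sod1, the cytosolic superoxide dismutase, by 4.78, Atg3, an enzyme of autophagy, by 4.44 and Cbr1, a carbonyl reductase, by 3.19. The first 3 of these also rose on the relative scale, and Cbr1 had a relative change of 0.24 (adjusted p = 0.784 by edgeR).

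**Figure D3:**
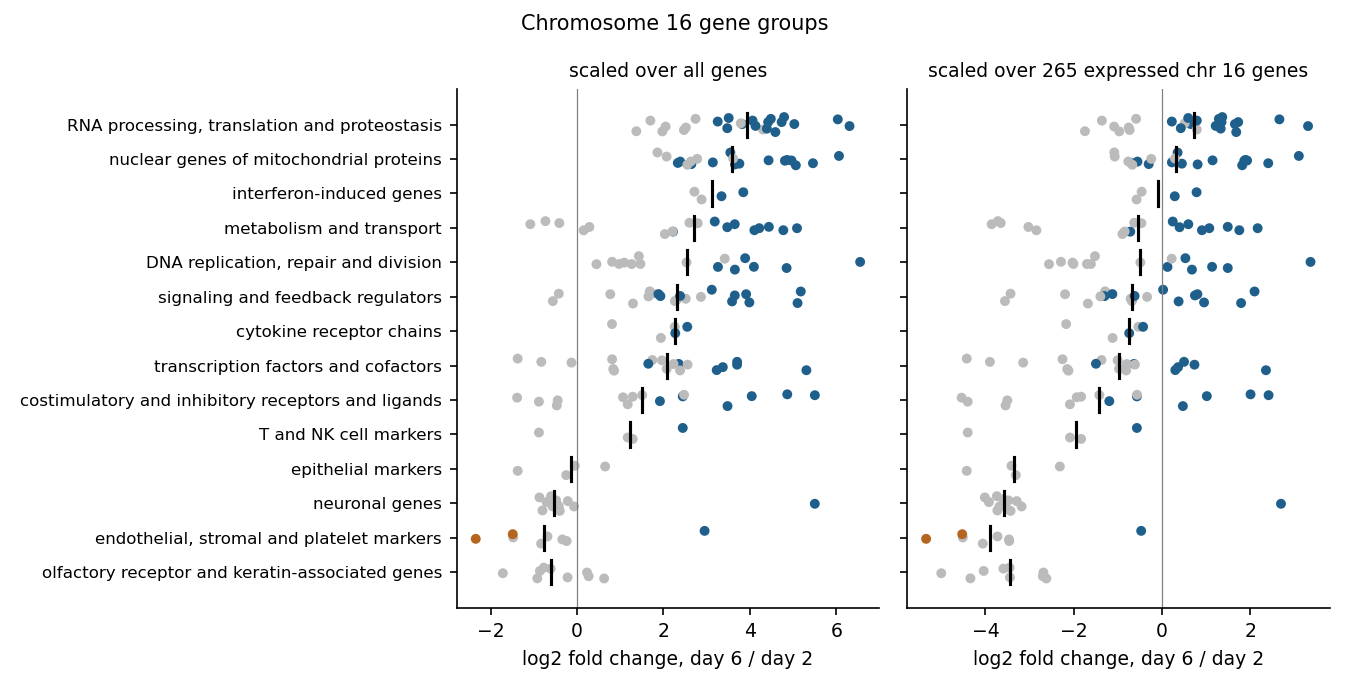
Log2 fold change of each tested member of 14 gene groups of chromosome 16 before 94 Mb, scaled over all genes (left) and over 265 expressed genes of chromosome 16 (right). Each point is a gene, blue where it rose, orange where it fell and grey where it did not pass the main test, and black bars are group medians. On the right the medians of 2 groups stay above 0.

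Signaling and feedback regulators had 10 of 21 genes higher and none lower by edgeR, with a median of 2.31 and a relative median of -0.68. Without mouse 5, 19 rose, and without any one of mice 1 to 4, 0 or 1 did by edgeR. Samsn1, an adaptor with SH3 and SAM domains that restrains lymphocyte signaling, was at 199, 14.5, 16.4, 27.4 and 451 CPM at day 2 and at 2092, 1525, 982, 5416 and 1303 CPM at day 6. It had a log2 fold change of 5.18 (SE 1.40, adjusted p = 0.0165 by edgeR), its relative change 2.09, and it was at 1919 CPM in uncultured C57BL/6J ILC2s. Usp25, a deubiquitinase, rose by 3.65 on the log2 scale and Rcan1, an inhibitor of calcineurin, by 1.93. The relative change of Rcan1 was -1.30 (adjusted p = 0.277 by edgeR). Socs1, named here after its values were seen because it is the feedback inhibitor of the IL-2 and TSLP pathways, was at 80.05, 9.04, 16.1, 13.2 and 2064 CPM at day 2 and at 1022, 919, 934, 2421 and 1997 CPM at day 6. Mouse 5 was thus as high at day 2 as at day 6, and the other 4 mice were far lower at day 2. Its log2 fold change was 5.10 (SE 1.504, adjusted p = 0.0252 by edgeR), with a relative change of 1.79 (adjusted p = 0.0221).

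Of the 5 cytokine receptor chains of chromosome 16, 2 rose and none fell by edgeR, with a median of 2.26. This became 4 without mouse 5 and 0 without any one of mice 1 to 4. Il1rap, the co-receptor of ST2 for IL-33, was at 24.2, 26.2, 28.7, 22.1 and 22.6 CPM at day 2 and at 53.2, 42.1, 20.8, 146 and 23.1 CPM at day 6. The days overlapped, and its log2 fold change was 0.81 (SE 0.59, adjusted p = 0.347 by edgeR), against a relative change of -2.17 (adjusted p = 0.0244). Ifnar1 and Ifngr2, chains of the type I and type II interferon receptors, rose by 2.55 and 2.27 on the log2 scale, and in both mouse 5 was within the day 6 range at day 2. Ifnar2 and Il10rb did not pass, at 1.94 and 2.26. In the scaling by expressed genes, the changes of all 4 turned negative (-0.43, -0.75, -1.12 and -0.54 for Ifnar1, Ifngr2, Ifnar2 and Il10rb) and none of these 4 passed edgeR's test there. Il10rb, a chain of the IL-10 receptor, was at 305 CPM in mouse 1 at day 2, above 4 of the 5 day 6 libraries.

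Of the interferon-induced genes, Dtx3l and Parp9, which form a complex of a ubiquitin ligase and a poly(ADP-ribose) polymerase family member, rose by 3.85 and 3.35 on the log2 scale. They overlap head to head, and their relative changes were 0.78 and 0.29. Parp14 and Nlrc3, a negative regulator of innate sensing, had positive changes on the log2 scale (2.72 and 2.88) without passing, turning to -0.46 and -0.58 on the relative scale, with 931 and 2421 CPM in mouse 5 at day 2 against at most 47.2 and 46.5 CPM in the other mice. The median of the 4 genes was 3.11, and -0.09 on the relative scale, and all 4 rose without mouse 5 but 0 without any one of mice 1 to 4. Among transcription factors and cofactors, 7 of 19 rose and none fell by edgeR, with a median of 2.08 and a relative median of -0.98, and 15 rose without mouse 5 and 3 or 4 without any one of mice 1 to 4. Beside Gabpa these include Etv5, an ETS factor (3.71), Hes1, a repressor in the Notch pathway (3.38), and Glis2, a zinc-finger factor (3.23). Their relative changes were 0.73, 0.36 and 0.30, none of which passed. Bcl6, a repressor that opposes the type 2 program in lymphocytes, was named after its values were seen and had 12.9 to 26.8 CPM at day 2 and 12.7 to 36.3 CPM at day 6 (log2 fold change -0.13, adjusted p = 0.868 by edgeR).

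All 4 CD200 receptor genes of chromosome 16 rose. Cd200r1, the inhibitory receptor for CD200, was at 118, 8.72, 8.04, 13.7 and 289.9 CPM at day 2 and at 1597, 968, 683, 3818 and 954 CPM at day 6. This made a log2 fold change of 5.51 (SE 1.39, adjusted p = 0.0114 by edgeR) and its relative change 2.41. Cd200r4, an activating member of the family, was at 3.23 to 45.9 CPM at day 2 and at 143 to 1526 CPM at day 6, a log2 fold change of 4.87 and a relative change of 2.00. Cd200r3, an activating member known from basophils and mast cells, had 49.98, 12.6, 10.7, 16.4 and 13.6 CPM at day 2 and 396, 226, 135, 951 and 181 CPM at day 6. Its log2 fold change was 4.04 (SE 0.88, adjusted p = 0.00491 by edgeR) and its relative change 1.01 (adjusted p = 0.16). Cd200r2, named after its values were seen to complete the family, rose by 1.92 on the log2 scale and had a relative change of -1.20 (adjusted p = 0.271). These 4 genes lie between 44765736 and 44981380 on chromosome 16 and resemble each other in sequence, so reads could be shared between them. Of the 15 costimulatory and inhibitory receptors and ligands tested, 6 rose and none fell by edgeR, with a median of 1.51 and a relative median of -1.42, and 11 rose without mouse 5 and 2 to 4 without any one of mice 1 to 4. Tigit, an inhibitory receptor of T and NK cells, was at 0.765 to 7.07 CPM at day 2 and at 4.52 to 26.4 CPM at day 6, with overlap. It rose by 2.45 on the log2 scale, and its relative change was -0.57.

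**Figure D4:**
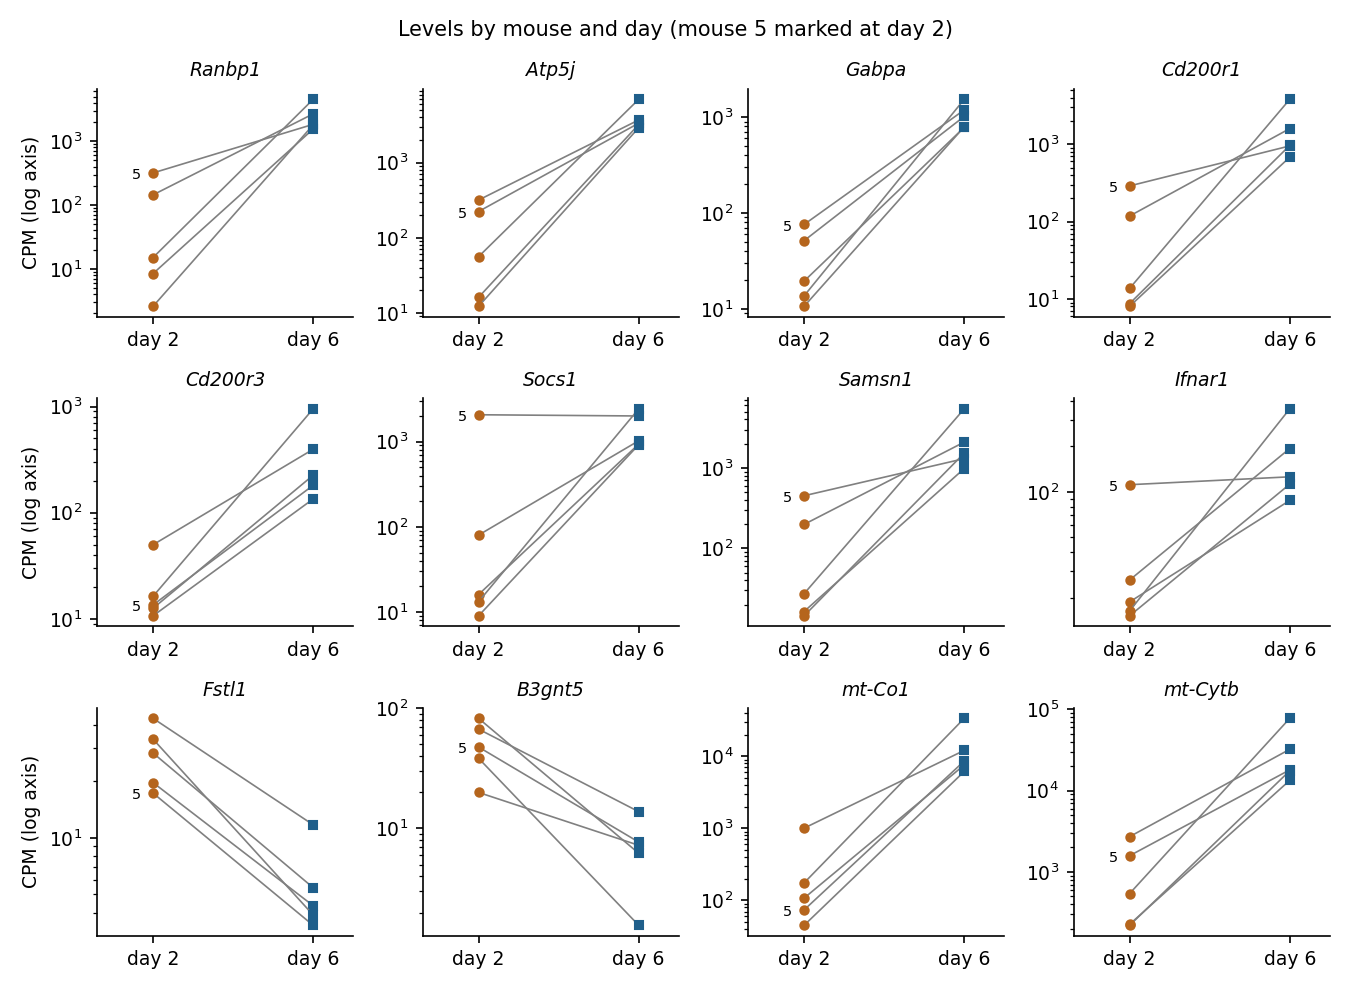
CPM of TMM-scaled library sizes on a log axis for 12 genes, with a line for each of the 5 mice from day 2 (circle) to day 6 (square) and mouse 5 marked. The lines of Fstl1 and B3gnt5 fall in every mouse, those of the other 10 genes climb in mice 1 to 4, and Socs1 and Ifnar1 are near flat in mouse 5.

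Few genes of chromosome 16 were lower at day 6, and of the 10 that fell before 94 Mb none reached 10 CPM in C57BL/6J ILC2s. Fstl1 and Mylk belong to the stromal list below. B3gnt5, a glycosyltransferase of the lacto-series glycolipids, was at 38.3, 66.9, 19.9, 82.2 and 47.5 CPM at day 2 and at 1.56, 13.8, 7.24, 6.21 and 7.70 CPM at day 6. Its log2 fold change was -2.83 (SE 0.57, adjusted p = 0.00296 by edgeR), without overlap. Fstl1, a secreted protein of stromal cells, was at 43.3, 19.7, 28.3, 33.6 and 17.3 CPM at day 2 and at 11.7, 4.35, 5.43, 3.88 and 3.42 CPM at day 6, a log2 fold change of -2.34 (SE 0.47, adjusted p = 0.00302 by edgeR). Mylk, the kinase of smooth muscle myosin, fell by 1.49 on the log2 scale. The levels of these 3 genes in C57BL/6J ILC2s were 0.922, 0.350 and 0.0438 CPM.

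Markers of other cell types on chromosome 16 gave few calls. Of 8 endothelial, stromal and platelet genes tested, 1 rose and 2 fell, with a median of -0.76. The gene that rose was Ccdc80, a matrix protein of stromal cells, which went from 3.01 to 25.8 CPM at day 2 to 64.2 to 182 CPM at day 6, a log2 fold change of 2.95 that turns to -0.47 on the relative scale. Of 12 neuronal genes, 1 rose (Gap43, a growth-cone protein, with 384 to 1562 CPM at day 6) and none fell, with a median of -0.52. Among epithelial genes none of 4 passed, with Trp63, a factor of basal cells, at -1.37 and Ppl, a cell-junction protein, at 0.65, which was at 207 CPM in mouse 5 at day 2 and at 18.1 to 31.2 CPM in the other mice. Of 3 B cell genes tested Klhl6 rose by 3.88 on the log2 scale and had 105 CPM in C57BL/6J ILC2s, whereas Ciita, the class II transactivator, did not pass at -0.83. Cd80 and Cd86, ligands of CD28 on antigen-presenting cells, did not pass at 1.51 and -1.39 on the log2 scale, nor did Cd96 and Btla, receptors of lymphocytes, at 1.29 and 1.17. Btla was at 184 CPM in mouse 5 at day 2 and at 5.49 to 10.3 CPM in the other mice. On the relative scale Cd80, Cd96, Btla and Ppl had negative values. None of the 9 olfactory receptor and keratin-associated genes of chromosome 16 tested passed (median -0.61), among them Olfr190 with 8.98 to 34.2 CPM at day 2 and 0 to 13.1 CPM at day 6, and Olfr15 with a log2 fold change of -0.92. Retnla, Retnlb and Retnlg, the resistin-like genes of chromosome 16, had 23, 22 and 39 counts over the 5 day 2 libraries and 7, 1 and 9 over the day 6 libraries, and none reached the filter.

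The mitochondrial genome gave the largest difference between the days, and its rRNAs and mRNAs went opposite ways. The 2 mitochondrial rRNAs took 13.8%, 56.4%, 21.0%, 37.1% and 55.6% of the counts in genes at day 2 in mice 1 to 5, and 2.97%, 3.93%, 2.65%, 3.34% and 2.92% at day 6. The mitochondrial mRNAs took 1.73%, 0.151%, 0.167%, 0.287% and 0.121% at day 2 and 6.13%, 4.78%, 4.20%, 8.44% and 4.12% at day 6. Neither share overlapped between the days, and each moved the same way in all 5 mice (exact sign-flip test of 5 pairs, p = 0.063, the smallest that 5 pairs allow). The ratio of rRNA to mRNA counts was 7.97 to 459 at day 2 and 0.396 to 0.822 at day 6, against 0.104 to 0.131 in uncultured C57BL/6J and 0.323 to 0.392 in uncultured CC030 ILC2s. The share of chromosome 16 genes was 1.36% to 3.95% at day 2 and 7.26% to 8.83% at day 6. Taken of the counts outside the mitochondrial genome it was 4.53% ± 2.18 at day 2 and 8.57% ± 0.91 at day 6 (SD, n = 5), higher at day 6 in 4 of 5 mice (exact sign-flip test, p = 0.125).

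**Figure D5:**
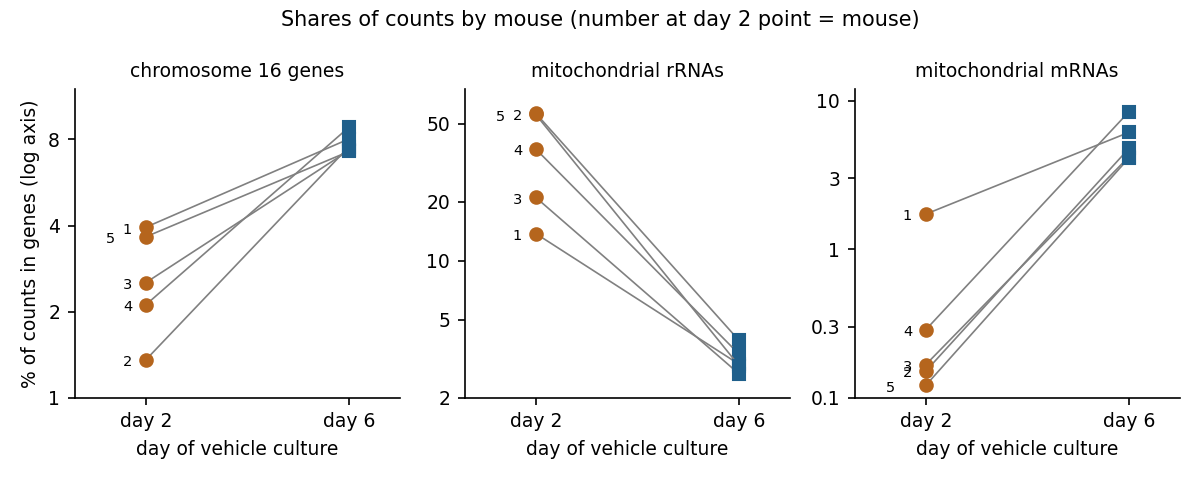
Share of the counts in genes, in percent on a log axis, taken by chromosome 16 genes, the 2 mitochondrial rRNAs and the mitochondrial mRNAs at day 2 (circles, with the mouse number) and day 6 (squares). Lines join the libraries of a mouse. The rRNA share falls below 4% in every mouse while the mRNA share rises above 4%.

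All 11 mitochondrial mRNAs tested rose, with a median log2 fold change of 5.31 and a relative median of 2.36. Without mouse 5 all 11 still rose, and without mouse 1, 2, 3 or 4, 9, 6, 5 and 3 did. mt-Co1, the catalytic subunit of cytochrome c oxidase, was at 1005, 108, 45.1, 175 and 73.8 CPM at day 2 and at 12040, 7551, 6141, 33520 and 8573 CPM at day 6. Its log2 fold change was 6.35 (SE 1.46, adjusted p = 0.00654 by edgeR) and its relative change 3.15 (adjusted p = 0.0144). mt-Cytb, of respiratory complex III, was at 220.3 to 2714 CPM at day 2 and at 13370 to 77490 CPM at day 6, a log2 fold change of 5.31. mt-Co2 and mt-Co3 rose by 5.61 and 4.95 on the log2 scale and mt-Atp6, of the ATP synthase, by 5.72. Of the complex I subunits, mt-Nd6, the only mRNA read from the other strand, rose by 5.72, mt-Nd1 by 5.33, mt-Nd4 by 5.07, mt-Nd2 by 4.23, mt-Nd5 by 3.80 and mt-Nd3 by 3.75. The counting is not stated to use strand, so counts of mt-Nd6, which overlaps the end of mt-Nd5, cannot be assigned to a strand. Of the 11 mRNAs, 8 also rose on the relative scale, and mt-Nd2, mt-Nd3 and mt-Nd5 did not pass there, with relative changes of 1.33, 0.78 and 0.88. The rRNAs mt-Rnr1 and mt-Rnr2 did not pass edgeR's test, at log2 fold changes of -1.86 (SE 1.58) and -2.57 (SE 1.61), lower at day 6 in all 5 mice, and both passed on the relative scale (-5.10 and -5.65). Of 8 mitochondrial tRNAs tested, 7 rose and none fell, and the limit of strand holds for those on the strand of mt-Nd6 as well.

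Beside the change, exon length and level moved with it. Across the 259 expressed genes, which are not independent replicates and share the same libraries, the log2 fold change had a Spearman's rho of -0.569 with exon length and of 0.508 with the level in C57BL/6J ILC2s. Shorter genes thus had larger increases. Over all genes counted, most of them on chromosomes whose symbols could not be read, levels followed exon length more in the day 2 libraries of mice 1 to 4 than at day 6. The day 2 library of mouse 5, at a rho of 0.678, lay within the day 6 range of 0.610 to 0.691. The part of exon length in the single increases was not tested.

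The change from day 2 to day 6 was also set against that of the same mice with AR420626. Of 730 chromosome 16 genes tested over 20 libraries, 185 rose and 4 fell with AR420626, and the median log2 fold change was 0.82 with vehicle and 0.82 with AR420626. This fit has its own filter, scaling and set of genes, so its vehicle median is not comparable with the 1.72 over 579 genes given above. The difference of the day effect passed edgeR's test for 12 of 23141 genes in all (0.0519%), 1 of them on chromosome 16 and none on the mitochondrial genome, where 52 of 730 and 2 of 23 genes had an unadjusted p under 0.05. The gene of chromosome 16 was Cd200r3. In CPM of the counts in genes it was at 107, 15.2, 24.6, 29.1 and 3.38 with vehicle at day 2 and at 268, 193, 130.3, 358 and 126 at day 6. With AR420626 it was at 32.4, 42.7, 28.5, 87.9 and 19.6 at day 2 and at 8.33, 6.34, 5.43, 20.9 and 10.2 at day 6. The day 6 levels with AR420626 rest on 6 to 25 counts a library. In the fit over 20 libraries its day effect was 3.95 with vehicle and -0.70 with AR420626, which did not pass (adjusted p = 0.62 by edgeR), a difference of -4.66 on the log2 scale (adjusted p = 0.0272). The neighbours Cd200r1 and Cd200r4 rose with AR420626 by 5.55 and 2.94 on the log2 scale, and their differences did not pass (adjusted p = 0.994 and 0.984 by edgeR).

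On the other chromosomes 1916 of 15219 genes tested rose and 578 fell under the symbols given. Of 23 cell cycle genes there 3 rose and none fell, and of 357 olfactory receptor and keratin-associated genes 27 rose and 8 fell. With the scaling by expressed genes of chromosome 16 these totals became 356 and 11068. What these counts say of the named genes cannot be told, since levels under those symbols did not follow those of C57BL/6J ILC2s at either day.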

How the data were processed

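RNA of sorted lung ILC2s was made into libraries with the SMART-Seq v4 Ultra Low Input kit. The authors deposited raw counts per gene from HTSeq, after FastQC, fastp and STAR. By the methods, CC030 reads were aligned to an mm9 pseudogenome and moved to mm10 with lapels, and C57BL/6J reads were aligned to mm10. No source states the strand setting of the counting. Symbols were found for 55141 of 55401 gene rows. Rows that name no gene stayed out of library sizes: reads in no feature made up 78.2% to 82.6% of the reads in the table at day 2 and 81.3% to 84.4% at day 6.

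Counts were tested in R 4.3.3 with edgeR 4.0.16 (quasi-likelihood, robust, TMM, filter at a minimum count of 10 and total of 15, mouse as a block, Benjamini-Hochberg over all genes, threshold 0.05). Standard errors were the fold change over the root of F. The common dispersion was 0.3782. Pairing comes from the labels, where a number is a mouse. The correlation of deviations from the group means within a mouse was 0.035, 0.382, 0.377, -0.439 and -0.046. Alternatives were other scalings, DESeq2 1.42.0, filters, thinning, no block and fewer mice. The fit was tested on simulated counts of 12484 genes, with 100 genes changed 4-fold and 100 changed 16-fold. It called 37% of the 4-fold and 100% of the 16-fold changes, with 2 false calls. The simulation drew all libraries at the common dispersion and left out the differences among the day 2 libraries. Its rates therefore do not carry over to these data, and a gene that did not pass may have changed.

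Genes were named by rule: the protein-coding genes of chromosome 16 that averaged 50 counts or more and moved alike in all 5 mice, up to 12 in each direction by size, all mitochondrial mRNAs and rRNAs tested, up to 4 genes with the smallest p per list, and all cytokine receptor chains. Of the genes that the list part of the rule names, some are given in counts only. The members and lists were chosen with earlier results of these data known.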

Additional observations from a re-analysis of the deposited data

Results flagged for a closer look

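In each group of 5 libraries the highest and the lowest value were compared with the others by the gap to the nearest library over the whole range. Of 166 groups, 21 held a library past the critical value of 0.71, and chance alone gives about 1 in 20 for independent groups. These groups share the same 10 libraries and are not independent, so that rate is no yardstick for the 21. Mouse 5 was the library in 14 of them, mouse 4 in 4, mouse 1 in 2 and mouse 2 in 1.

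At day 2, mouse 5 was past the critical value above the other mice for 8 genes: Nlrc3 at 2421 CPM, Parp14 at 930.8 CPM, Ppl at 207.1 CPM, Btla at 183.8 CPM, Ifnar2 at 119.7 CPM, Ifnar1 and Rmi2 each at 111.5 CPM and Ifngr2 at 103.2 CPM, and it was below them for Olfr15 at 1.506 CPM. Genes such as Socs1, Trmt2a and Rfc4 were also highest in mouse 5 at day 2 but are not among those past that value. The same library had the fewest genes with a count (32347), 6.711% of counts in Malat1, a nuclear noncoding RNA, the lowest rho of level with exon length (0.6784) and the highest share of reads in genes (11.12%).

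Mouse 1 stood apart at day 2 for Cd200r3 (49.98 CPM) and for the share of mitochondrial mRNAs (1.725%), and mouse 2 for Olfr190 (34.24 CPM). At day 6, mouse 4 stood above the others for Atp5j (6957 CPM), Parp9 (602.7 CPM), Cbr1 (219.8 CPM) and Cd200r2 (80.0 CPM), and mouse 5 for Glis2 (171.9 CPM).

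The change of Cd200r3 from day 2 to day 6 differed between AR420626 and vehicle by -4.66 on the log2 scale (adjusted p = 0.0272 by edgeR). With AR420626 alone the change was -0.70 and did not pass (adjusted p = 0.62 by edgeR). Cd200r3 is known from basophils and mast cells, and Cpa3, a protease of those cells that lies on chromosome 3, could not be read under its symbol. The sort was set to leave out cells with FcεR1, which basophils and mast cells carry. Uncultured C57BL/6J ILC2s, also sorted with FcεR1 in the lineage stain, had a mean of 409.6 CPM of Cpa3 (SD 228.5, n = 3). The part of such cells in the difference was not tested.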

How the results depend on the processing

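On chromosome 16, 218 genes rose and 12 fell. Leaving out each replicate gave 87 to 355 higher and 6 to 35 lower, the highest without mouse 5. On the mitochondrial genome the same gave 9 to 18 higher (18 with all mice), and on other chromosomes 724 to 3570 higher and 168 to 1398 lower. With no replicate block, 139 genes of chromosome 16 and 1259 of other chromosomes rose. Without mice 4 and 5, 342 and 3170 rose and 19 fell on chromosome 16. Without mice 2, 3 and 4, chosen after the data had been seen, 0 rose and 0 fell on chromosome 16, 0 rose on the mitochondrial genome (12 of 22 with an unadjusted p under 0.05) and 8 rose and 13 fell elsewhere, in a fit of 4 libraries with little power.

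Scaling on chromosome 16 alone gave 122 higher and 145 lower. Scaling by its expressed genes, also chosen after the data had been seen, gave 49 higher and 235 lower, 11 higher and 3 lower on the mitochondrial genome, and 356 higher and 11068 lower elsewhere, which follows from setting those genes near 0. DESeq2 called 302 higher and 23 lower on chromosome 16, 2 lower on the mitochondrial genome and 1131 lower elsewhere. Without mitochondrial genes in the scaling, 19 fell on chromosome 16 and 971 elsewhere. Without a filter 22 fell on chromosome 16. With at least 10 counts in every library 25 fell there, 10 rose and 2 fell on the mitochondrial genome, and 981 rose and 1220 fell elsewhere. With protein-coding genes alone 11 mitochondrial genes rose.

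Among 74 named genes followed through the alternatives, 948 values kept direction and side of the threshold, 184 lost the call (57 of them with mice 1 and 5 alone), 45 gained it and 38 turned direction. By expressed genes these were Btla (-2.09), Ccdc80 (-0.47), Cd200r2 (-1.20), Cd80 (-1.42), Cd96 (-1.83), Ifnar1 (-0.43), Ifnar2 (-1.12), Ifngr2 (-0.75), Il10rb (-0.54), Il1rap (-2.17), Mrpl39 (-0.30), Nlrc3 (-0.58), Parp14 (-0.46), Ppl (-2.32), Rcan1 (-1.30) and Tigit (-0.57). By chromosome 16 they were Btla (-0.93), Cd200r2 (-0.0171), Cd80 (-0.40), Cd96 (-0.68), Ifnar2 (-0.0641), Il1rap (-1.08), Ppl (-1.27) and Rcan1 (-0.0706). With no replicate block they were Btla (-0.20) and Nlrc3 (-0.33), and with at least 10 counts in every library Btla (-0.17), Il1rap (-0.30) and Ppl (-0.49). Without mice 2, 3 and 4 they were Btla (-1.01), Cd80 (-0.30), Il10rb (-0.82), Nlrc3 (-0.0493) and Ppl (-0.40). Bcl6 turned to 0.0276 with protein-coding genes and 0.11 without mice 4 and 5, and ran from -0.87 to 0.17 on leaving out a replicate. The cause of these turns was not tested.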
